A study of Drosophila melanogaster with 3 samples.

Results

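The cuticle protein genes of Drosophila melanogaster were examined for binding of Phol in whole embryos. They were taken as the protein-coding genes whose symbols begin with Cpr and a digit, Lcp, Ccp84, Pcp, Twdl or Edg, and 121 of 13945 protein-coding genes on the 6 main chromosome arms met this rule. They comprise 70 Cpr, 15 Lcp, 7 Ccp84, 25 Twdl and 3 Edg genes and Pcp. The embryos came from a transgenic line that makes Phol joined at its C terminus to green fluorescent protein (phol-eGFP), and chromatin was precipitated with an antibody against that tag. They were of mixed sex and aged 0 to 16 hours, and the 3 biological replicates form 1 group with no contrasting condition. The labels name whole organisms only, so binding in the epidermis cannot be told apart from binding in other tissues. Each replicate has a list of 30000 peaks and so have the pooled replicates. The 10264 strongest pooled peaks make up the list thresholded by the authors on the irreproducible discovery rate, here called the reproducible list. Read depths are unknown, and no control sample is analysed here.

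The insect cuticle is a layered coat of chitin fibres and proteins that the epidermis secretes towards the outside. A first cuticle is laid down late in embryogenesis, and new sets of cuticle proteins are made at each moult under the hormone ecdysone. Most Cpr, Lcp and Ccp84 proteins carry the Rebers-Riddiford consensus, which binds chitin, while the Tweedle (Twdl) proteins form a separate family that helps shape the body. Phol (pleiohomeotic like) binds DNA through zinc fingers and belongs to the Polycomb group, and the core of its site reads GCCAT.

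The sequences that follow show a selection of summits beside or between cuticle protein genes, and the starts of genes of the same class that had none. Sequences are from the RefSeq assembly of genome release 6, the build of the peak lists, written 5′ to 3′. Capitals mark GCCAT and TATAAA and GAGAG, each read on either strand. The first 5 are 101 bases centred on reproducible summits beside Cpr65Ea, between Cpr65Eb and Cpr65Ec, beside Cpr65Ay, upstream of Cpr67Fb and upstream of Cpr64Aa, and none of the 5 holds GCCAT. Of all 10264 reproducible summits, 19.6% held GCCAT in a window of 101 bases, so most windows lack it. The summit near Lcp9, which does hold GCCAT, is described with that gene and not printed.
Cpr65Ea summit (chr3L:7086784-7086884, plus strand): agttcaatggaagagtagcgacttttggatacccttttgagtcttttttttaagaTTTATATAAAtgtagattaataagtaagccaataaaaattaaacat
Cpr65Eb to Cpr65Ec summit (chr3L:7090924-7091024, plus strand): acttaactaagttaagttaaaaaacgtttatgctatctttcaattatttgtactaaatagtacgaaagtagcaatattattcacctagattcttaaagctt
Cpr65Ay summit (chr3L:6157761-6157861, plus strand): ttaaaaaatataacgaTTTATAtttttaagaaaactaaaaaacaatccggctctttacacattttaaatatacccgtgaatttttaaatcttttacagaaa
Cpr67Fb summit (chr3L:10893561-10893661, plus strand): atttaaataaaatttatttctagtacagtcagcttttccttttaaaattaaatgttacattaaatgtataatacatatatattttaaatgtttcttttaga
Cpr64Aa summit (chr3L:4209882-4209982, plus strand): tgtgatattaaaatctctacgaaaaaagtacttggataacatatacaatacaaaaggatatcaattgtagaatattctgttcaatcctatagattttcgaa

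The next 5 are the 100 bases upstream of the start of genes without a reproducible summit within 500 bp, 1 each from the large Twdl cluster, the Ccp84 cluster and the ecdysone-dependent genes, and a pair that lie inside the intron of another gene. Each holds TATAAA shortly before the start, the position of a TATA box. These 5 do not stand for all cuticle protein genes, as 57% of the 121 had the word at that position. TwdlY, TwdlZ and Twdlalpha, which share a cluster with TwdlX, lack it in the 100 bases upstream of their starts. The word is also not limited to genes without such a summit. Cpr65Ea, which has a reproducible summit within 500 bp, holds it 29 bases upstream of its start.
TwdlD (chr3R:26639925-26640024, plus strand): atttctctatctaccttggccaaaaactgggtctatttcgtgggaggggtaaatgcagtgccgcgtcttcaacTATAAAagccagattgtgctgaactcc
Ccp84Aa (chr3R:6703984-6704083, plus strand): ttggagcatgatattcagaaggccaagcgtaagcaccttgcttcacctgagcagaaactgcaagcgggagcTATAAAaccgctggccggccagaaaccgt
Edg84A (chr3R:6684345-6684444, plus strand): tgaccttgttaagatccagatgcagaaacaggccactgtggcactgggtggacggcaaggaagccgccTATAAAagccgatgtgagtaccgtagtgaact
Pcp (chr2L:7021582-7021681, plus strand): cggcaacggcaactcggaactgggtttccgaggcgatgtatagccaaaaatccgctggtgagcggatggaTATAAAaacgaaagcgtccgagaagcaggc
TwdlX (chrX:16730991-16731090, plus strand): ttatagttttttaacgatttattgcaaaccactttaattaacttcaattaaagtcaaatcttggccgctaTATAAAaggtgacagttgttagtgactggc
The last pair are 101 bases centred on the summits at the starts of the genes that enclose Pcp and TwdlX, which are Gart and goe. Neither holds any of these words.
Gart summit (chr2L:7024119-7024219, minus strand): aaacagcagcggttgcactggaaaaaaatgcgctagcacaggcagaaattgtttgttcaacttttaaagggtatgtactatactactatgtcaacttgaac
goe summit (chrX:16751919-16752019, minus strand): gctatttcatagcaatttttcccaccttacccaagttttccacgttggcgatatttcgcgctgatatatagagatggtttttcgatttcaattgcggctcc

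Phol summits were nearly missing from the starts of cuticle protein genes. In the reproducible list, a summit stood within 500 bp of the start of 2 of 121 (1.65%), and such genes are called occupied, against 40.8% of all 13945 protein-coding genes. These 2 were Cpr65Ea and Lcp9, which encode chitin-binding and larval cuticle proteins. The strongest 10264 peaks of replicates 1, 2 and 3 each gave 2 members, where 43%, 41.5% and 37% of all genes were occupied. The replicates thus gave 2 ± 0 members (SD, n = 3), against 5646 ± 436 of all genes. No test was run on this list, whose members were chosen with earlier results of these data known, and the counts are set beside the background as a description.

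Weaker peaks added few members. In the full lists of 30000 peaks, replicate 1 placed a summit within 500 bp of 6 members, replicate 2 of 8 and replicate 3 of 11, against 56.5%, 56% and 54.5% of all genes. The mean was 8.33 ± 2.52 members (SD, n = 3), and the pooled list gave 8, against 55.4% of all genes. Of the 121 members, 107 had a summit in 0 replicate lists, 7 in 1, 3 in 2 and 4 in all 3. The 4 were Lcp9, Cpr65Ea, Cpr67Fa1 and Cpr78Cc. The odorant, gustatory and ionotropic receptor genes, another set of gene families, had 4 of 179 occupied in the reproducible list and 17 in the pooled list.

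**Figure D1:**
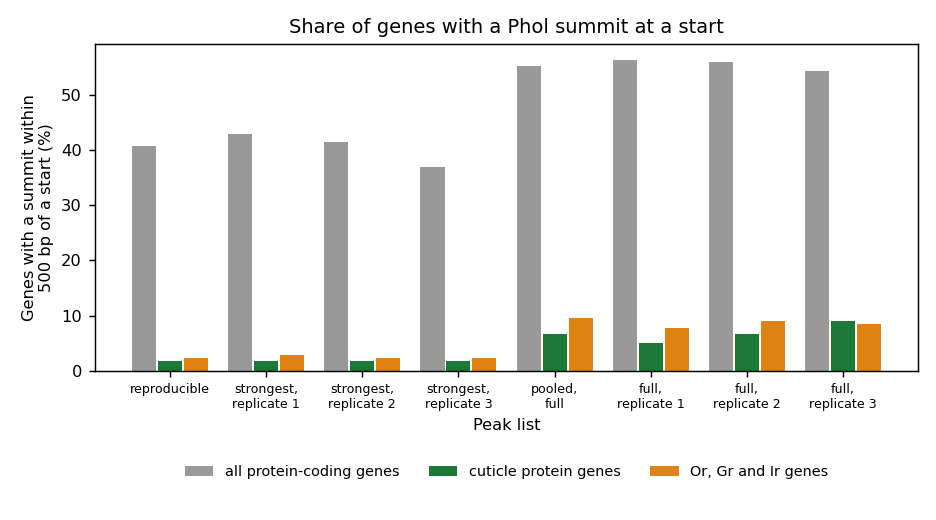
Share of genes (percent, y axis) with a summit within 500 bp of a start in each of 8 peak lists (x axis), for all 13945 protein-coding genes, the 121 cuticle protein genes and 179 receptor genes (Or, Gr, Ir). The cuticle protein genes stand at 1.65% in the reproducible list against 40.8% of all genes, and at 9.09% in their highest list, the full list of replicate 3.

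Most members lay kilobases away from any summit. The median distance from a member's nearest start to the nearest reproducible summit was 11288 bp, against 1761 bp over all genes, and over the strongest peaks of the replicates it was 11137 ± 616 bp (SD, n = 3) against 1777 ± 407 bp. Of the 121, 94 were over 5000 bp away and 67 over 10000 bp away. Within 200 bp the count was 0 members against 31.8% of all genes, and within 1000 bp it was 8 against 45.1%. Just inside the limit of 500 bp stood Lcp9 at 428 bp, and just outside stood Cpr67Fa1 at 504 bp and Cpr67Fb at 562 bp.

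**Figure D2:**
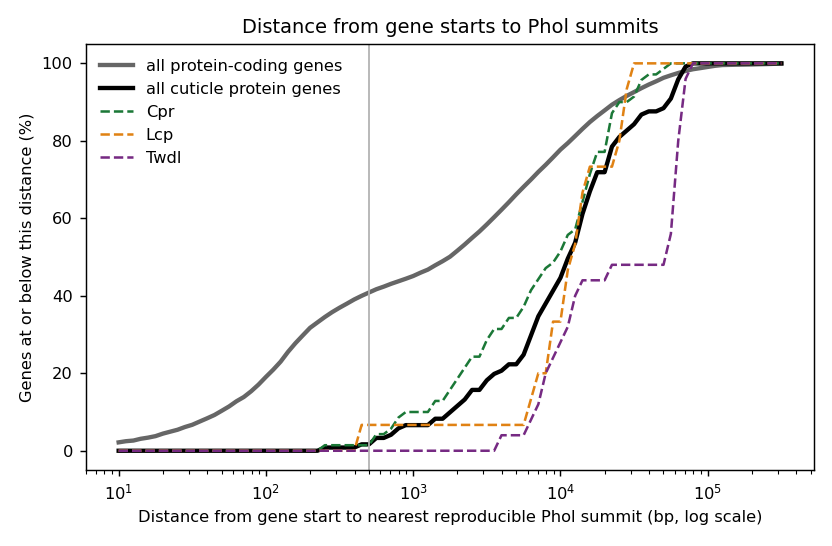
Cumulative share of genes (percent, y axis) by the distance of their start from the nearest reproducible summit (bp, log scale, x axis), for all protein-coding genes, all cuticle protein genes and the Cpr, Lcp and Twdl families. The grey vertical line marks 500 bp. The cuticle protein genes run to the right of all genes, with medians of 11288 and 1761 bp, and the Twdl median is 52174 bp, or 9000 bp without the 12 genes of 1 cluster.

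The families differed in how far they lay from Phol summits. The Cpr genes, the chitin-binding family, had 1 of 70 occupied and a median of 9706.5 bp, and in the pooled list 6 of 70. The Lcp genes, first named for larval cuticle, had 1 of 15 and a median of 11967 bp. Over all genes, 40.8% were occupied in the reproducible list, with a median of 1761 bp, and 55.4% in the pooled list. None of the 7 Ccp84 genes had a summit within 500 bp in any of the 5 lists, and their distances ran from 5659 to 17021 bp in the reproducible list. None of the 25 Twdl genes had one in any of these lists either. The Twdl genes had a median of 52174 bp, and the nearest, TwdlF, lay 3653 bp from a summit. This median was set by the 12 genes from TwdlM to TwdlD, which sit in 1 cluster and share their nearest summit. The other 13 Twdl genes had a median of 9000 bp, below those of the Cpr and Lcp genes. In the full lists of replicates 1, 2 and 3 the median of all 25 was 21239, 10932 and 11002 bp.

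The ecdysone-dependent genes and Pcp were also unoccupied in the reproducible list. Edg78E lay 6768 bp, Edg84A 9708 bp and Edg91 5413 bp from the nearest reproducible summit. For Edg84A, only replicate 2 had a summit within 500 bp, at 347 bp, in a peak at 68.1% of its list, where a low percentage means a strong peak. For Edg91, only the pooled list had one, at 420 bp and 93.4% of the list. The larval genes Lcp1, Lcp2, Lcp3 and Lcp4 lay 31373, 27831, 27173 and 24969 bp from the nearest summit, which stood 137 bp from the start of the maltase gene Mal-A5 and was strong, at rank 737.

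Cpr65Ea was the only member whose own start was the nearest coding start to a summit within 500 bp in the reproducible list. Its peak (3L, 7086624 to 7087043, rank 8593) had a summit 226 bp upstream of the start, between genes. The replicates placed a summit 228, 226 and 347 bp away, in peaks at 27%, 28.3% and 31.8% of their lists. All 3 replicates thus found it, in the stronger part of their lists. Another summit lay 906 bp upstream (rank 6903, at 24.2% ± 3.38 of the replicate lists, SD, n = 3). The strongest of this locus lay 2187 bp from the start of Cpr65Eb, between Cpr65Eb and Cpr65Ec (3L, 7090817 to 7091126, rank 2157, 7.46% ± 2.25, SD, n = 3), and no coding start was nearer.

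The summit near Lcp9 lay closer to another gene. The peak (2R, 24780646 to 24781065, rank 6247) stood 428 bp upstream of Lcp9 and 61 bp from the start of CG3594. In replicates 1, 2 and 3 the summit was 408, 428 and 374 bp from Lcp9, at 19.3%, 23.1% and 18.8% of the lists. The replicates placed it alike. Its window of 101 bases was the only one of 12 near cuticle protein genes to hold GCCAT, and it held the longer GCCATNTT as well.

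A further 6 members had their nearest reproducible summit over 500 and up to 1000 bp away, and all 6 are Cpr genes on 3L. Cpr67Fa1 and Cpr67Fb, which belong to 1 cluster, had summits 504 and 562 bp upstream, at ranks 7869 and 5745. In the replicates, that of Cpr67Fb stood at 23.5%, 23.6% and 14.8% of the lists, so replicate 3 ranked it highest. Cpr64Aa had a summit 754 bp upstream (rank 5976; 18.7%, 21% and 21.5% of the lists), in an intron of CG43367, the gene that encloses this cluster. Cpr65Az had summits 645 and 846 bp upstream, at ranks 7392 and 6293. The remaining summits lay nearer to other genes. That of Cpr65Ay (rank 2546; 15.3%, 7.96% and 7.47% of the lists) was 819 bp downstream of its start and 434 bp from CG13297. That of Cpr73D (rank 3966; 19.1%, 16.1% and 9.57%) was 758 bp downstream and 508 bp from a start of Ogdh, which encodes a subunit of the oxoglutarate dehydrogenase complex.

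**Figure D3:**
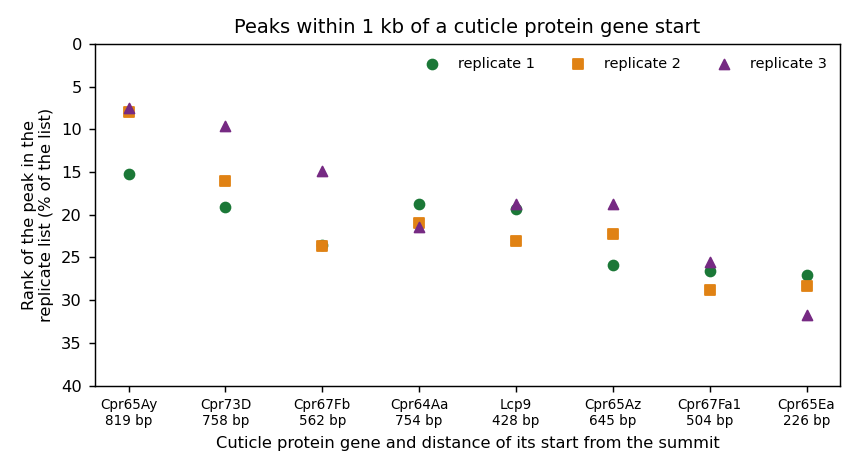
Rank of the peak (percent of the replicate's list of 30000, y axis, strongest at the top) within 250 bp of the nearest reproducible summit, for the 8 cuticle protein genes with such a summit within 1 kb (x axis, with the distance). The symbols stand for the 3 replicates. Cpr65Ay reaches 7.47% in replicate 3, and Cpr65Ea, the nearest at 226 bp, stands at 27% to 31.8%.

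The peaks that only the longer lists placed within 500 bp of a member stood lower, at 41% to 98.8% of the replicate lists in the genes named here. Cpr78Cc was found in all 3 replicates, 87, 78 and 181 bp from the start, but at 98.8%, 68.4% and 81% of the lists. Cpr67Fa1 had a summit 299, 300 and 235 bp away, besides the reproducible one at 504 bp, at 74.9%, 54.9% and 86.8%. Cpr12A was found in the lists of replicates 2 and 3, 131 and 162 bp away (41% and 46.1%), and in replicate 1 the nearest summit was 2555 bp away. Cpr30F was found in replicates 1 and 3, 169 and 29 bp away (91.6% and 54.9%), with 5016 bp in replicate 2. Cpr66D was found in the same replicates at 111 and 373 bp (96.7% and 93.7%), with 5657 bp in replicate 2. Each of these 3 genes thus had 1 replicate without a summit within 500 bp. Replicates 2 and 3 also shared a stronger peak 579 and 562 bp from Cpr72Eb (22.7% and 15.6%), where the nearest summit was 12918 bp away in replicate 1 and 3591 bp away in the pooled list. This gene was chosen after its values were seen.

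Many cuticle protein genes sit in tandem clusters, and these were poor in summits. Runs of at least 3 members with neighbouring starts at most 20 kb apart gave 15 clusters with 87 members, over 243 kb in all. They held 9 reproducible summits, or 3.7 per 100 kb, against 7.67 per 100 kb over the 6 arms. The strongest peaks of the replicates gave 4.11 ± 0.411 per 100 kb (SD, n = 3) against the same 7.67, and the full lists of the replicates 7.27 ± 1.44 against 22.4. Inside clusters 1 of 87 members was occupied, and outside 1 of 34, against 40.8% of all genes. In the pooled list these counts were 3 of 87 and 5 of 34, against 55.4% of all genes. The median distances there were 9824 and 3264 bp, against 309 bp over all genes. Of the 9 summits, 8 lay in clusters on 3L, which holds 8 of the 15 clusters and 46 of the 121 members.

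The summits gathered in a few clusters. The cluster from Lcp65Ag3 to Cpr65Az, with 17 members the largest, held 3 summits, and all 3 lay in its last few kilobases beside Cpr65Ay and Cpr65Az. Those upstream of Cpr65Az, at ranks 6293 and 7392, came from overlapping peaks and are counted separately throughout. In each replicate the strongest peak within 250 bp was the same for both. The 3 genes from Cpr65Ea to Cpr65Ec held 3 within 7.84 kb. The clusters from Cpr64Aa to Cpr64Ad, Cpr67Fa1 to Cpr67Fb and Cpr47Ea to Cpr47Eg held 1 each, that of the last beside TpnC47D, a troponin C gene, 578 bp from its start (rank 3104). The other 10 clusters held 0. Of these, 7, with 38 members in 112 kb, held no summit in the pooled list or any replicate list either. They were Lcp1 to Lcp4, Cpr62Ba to Cpr62Bc, Cpr76Ba to Cpr76Bd, TwdlF to TwdlV, Edg84A to Ccp84Aa, TwdlM to TwdlD and TwdlX to Twdlalpha.

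**Figure D4:**
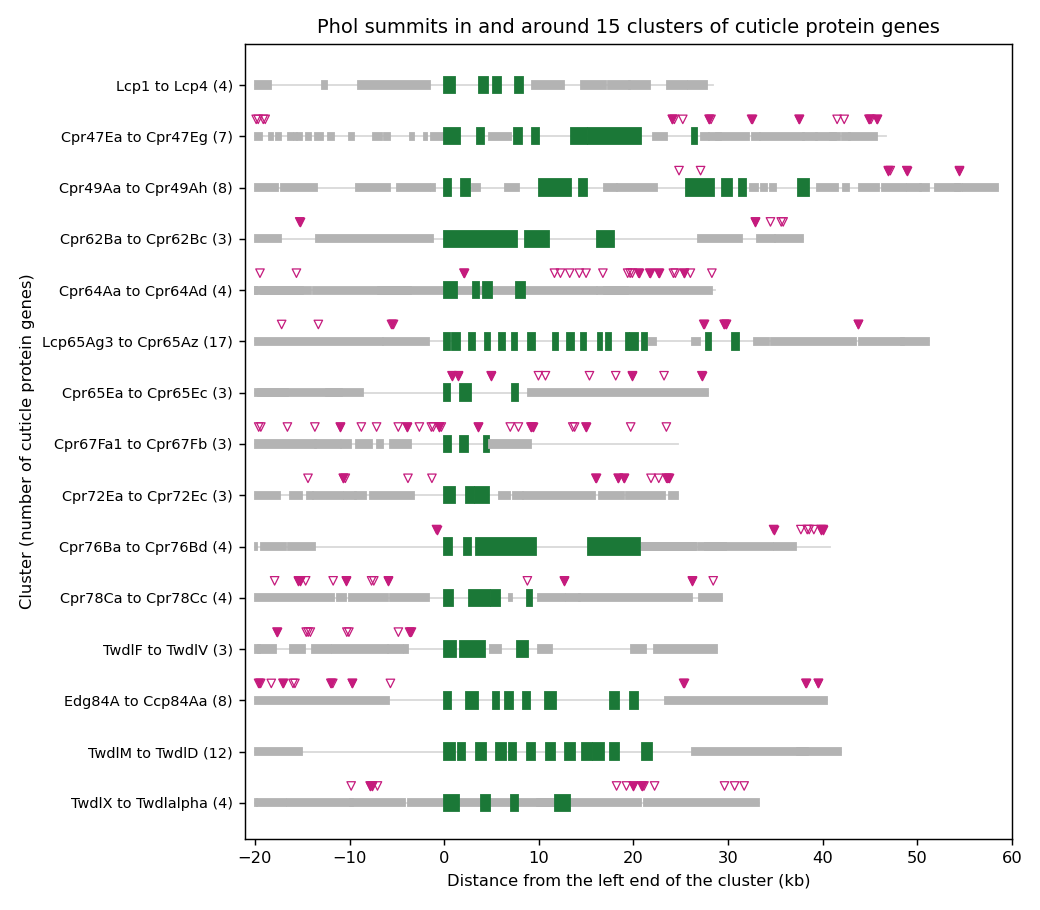
Map of the 15 clusters of cuticle protein genes, 1 per line, to scale (kb from the cluster's left end, x axis), with 20 kb shown on either side. Green boxes are cuticle protein genes, grey boxes other protein-coding genes, filled triangles reproducible summits and open triangles those of the pooled list. The lines of the clusters from TwdlM to TwdlD and from Lcp1 to Lcp4 have no triangle, and most triangles of the other lines lie outside the green boxes.

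Among these 7 clusters, the longest stretches without a reproducible summit belonged to Twdl and Lcp genes. From the last reproducible summit before TwdlM to the first after TwdlD it was 147 kb, and the left neighbour, the cell polarity gene scrib, had a summit 127 bp from a start. For these 12 genes the distances to a summit were 52174 to 73081 bp in the reproducible list and in replicate 1. Replicates 2 and 3 had peaks nearer by in their full lists, with TwdlM at 5600 and 5623 bp and TwdlD at 14768 and 26530 bp. In the strongest peaks of these replicates, TwdlM lay 35675 and 61381 bp and TwdlD 14768 and 74343 bp from a summit. Around Lcp1 to Lcp4 the stretch was 140 kb. The Ccp84 cluster lies in the Antennapedia complex between the Hox genes lab and pb, and the stretch there was 35 kb. Neither lab (1384 bp) nor pb (4233 bp) had a reproducible summit within 500 bp of a start, though the pooled list had them at 176 and 61 bp.

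Several members lie inside introns of genes that had an occupied start. The 4 genes TwdlX, TwdlY, TwdlZ and Twdlalpha lie within goe (gone early), on the opposite strand. A summit stood 59 bp from the start of goe (X, 16751793 to 16752119, rank 2620), at 6.91%, 8.68% and 10.5% of the replicate lists, while the starts of the Twdl genes lay 7610, 11466, 12906 and 8237 bp from any. For Twdlalpha and TwdlZ the nearest was another summit inside goe, at rank 2021. Pcp, which encodes a pupal cuticle protein, lies in Gart, a gene of purine synthesis. Gart had a summit 271 bp from its start (2L, 7023959 to 7024378, rank 10215, near the end of the list; 25.5%, 38.6% and 41.6% of the lists), and Pcp stood 2487 bp from the same summit. Cpr11B lies in hwt (X, 12516634 to 12568452, minus strand), which had a summit 253 bp from an annotated start (X, 12547137 to 12547469, rank 5262). That start lies inside the gene, and a transcript from it does not run over Cpr11B. Cpr11B itself stood 5273 bp from a summit. For members inside CG43367 or RYa-R, the enclosing gene had no summit within 500 bp.

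For most cuticle protein genes, the nearest summit lay closer to the start of a gene outside the list. This was so for 99 of the 121 members, and for 57 (47.1% of the 121) that other start was within 500 bp of the summit. No matching share over all genes was computed. Only 121 of 13945 genes are members, so at distances of kilobases a nearer start outside the list is likely in any case. Members shared their nearest summits, 58 in all, so these counts are not of separate sites. Of the 58, 8 (13.8%) were among the strongest 1000 of the list, which are 9.74% of it. The nearest summit of Cpr50Ca and Cpr50Cb, 54658 and 29796 bp away, was the strongest of all, at fl(2)d, a regulator of splicing. The genes at the edges of clusters were occupied in 8 of 30 cases (26.7%, against 40.8% of all genes), among them OXA1L and Aps beside the Cpr67F genes, at 28 and 40 bp, and pzg and CG11309 beside the Cpr78C genes, at 130 and 87 bp. Of 17 other coding genes within or overlapping the clusters, CG13297 and goe were occupied, 2 in all.

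The cuticle protein genes mostly had a single start, with no oppositely directed coding start close upstream. Of the 121, 110 (90.9%) had a single annotated start, against 73.5% of all genes, and 13 (10.7%) had an oppositely directed coding start within 1000 bp upstream, against 33.3%. These features were then held fixed. Of the 6918 genes with a single start and no such neighbour, 19.6% were occupied, and 1 of the 100 members of that kind was. Of the 3328 genes with a single start and a divergent neighbour, 65.3% were occupied, and 1 of the 10 such members was. The part of these features in the low count was not tested further.

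A TATA box word was frequent at the starts of these genes. TATAAA on the gene's own strand began 20 to 40 bases upstream of the most upstream start in 69 of 121 members (57%), at a median of 28 bases, against 7.79% of all genes. It was found in 34 of 70 Cpr, 11 of 15 Lcp, 5 of 7 Ccp84, 15 of 25 Twdl and 3 of 3 Edg genes and at Pcp. Over all genes, it stood at 2% of occupied genes and 11.8% of unoccupied ones. Of the 1018 genes outside the list that had it, 11.1% were occupied, against 43.5% of the 12806 without it. Members were low in either case, with 1 of 69 occupied with the word and 1 of 52 without it. The occupied member counted as without it was Lcp9, where TATAAA began 18 bases upstream, just outside the range. At Cpr65Ea, the other occupied member, it began 29 bases upstream. The position range of this word was chosen after the data were seen.

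**Figure D5:**
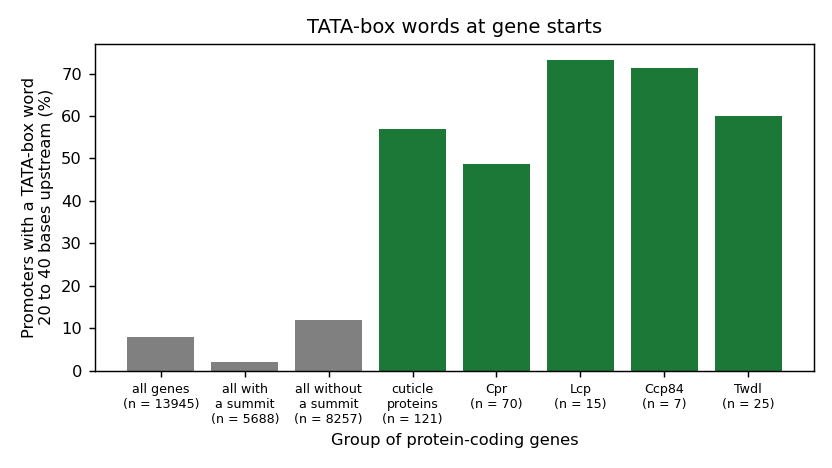
Share of promoters (percent, y axis) with a TATA-box word beginning 20 to 40 bases upstream of the start, for all protein-coding genes, those with and without a reproducible summit within 500 bp, and the cuticle protein genes in all and by family (x axis, with the number of genes). Cuticle protein genes stand at 57%, all genes at 7.79%.

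The core word of the Phol site was not scarce in these promoters, while a longer form of it was found in few. In the 300 bases from 250 before to 50 after the most upstream start, on either strand, GCCAT was in 64 of 121 (52.9%), against 41.2% of all promoters, 40.2% of occupied and 41.9% of unoccupied ones. The longer GCCATNTT, which contains it, was in 2 of 121 (1.65%), against 5.94% of all promoters, 7.28% of occupied and 5.01% of unoccupied ones. GAGAG, a word bound by GAGA factor, was in 30.6% against 29.7%. The median GC content of these windows was 44% in members and 38% in all genes, and its part in the word counts was not tested. At the 12 reproducible summits within 1 kb of a member or inside a cluster, with ranks from 2157 to 8593, GCCAT stood within 50 bp of 1 (8.33%), against 19.6% of all summits. GCCATNTT stood at 1 as well (8.33%), against 6.63% of all summits. A count of 1 is too small to show a difference in either word. The median GC content of those 12 windows was 25.2%, against 31.7% for all summits.

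The proteins of these families are of different kinds. The PROSITE form of the Rebers-Riddiford consensus was found in 73 of 121 translated coding sequences, in 52 of 70 Cpr, 12 of 15 Lcp, 6 of 7 Ccp84, 2 of 3 Edg, in Pcp, and in 0 of 25 Twdl proteins. The median length was 105 residues in Lcp, 179.5 in Cpr and 274 in Twdl. Low occupancy was seen in the Twdl family, where no protein held the consensus, and in families where most did. Occupancy was not compared gene by gene between proteins with and without it.

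Other genes of cuticle assembly stood between the cuticle protein genes and all genes in their share of occupied starts. Of 68 genes in 7 role groups, 14 (20.6%) had a reproducible summit within 500 bp, against 40.8% of all genes, and each replicate's strongest peaks also gave 14. Chitin synthesis and export had 2 of 7, with the strongest peak at rtv, a membrane protein needed to order chitin fibres (rank 7354, 105 bp), while the midgut chitin synthase gene Chs2 lay 7694 bp from a summit. The chitin deacetylases had 0 of 5, with Cda4 92277 bp away, and the peritrophin-type chitin-binding proteins 0 of 9, with Gasp 7109 bp away. The group called chitin turnover took in both Cht and Idgf genes. It had 4 of 16 (Cht7, Cht11, Idgf2 and Idgf6), led by the chitinase gene Cht7 (rank 1295, 4.4% ± 0.0551 of the replicate lists, SD, n = 3), and Cht10 lay 42467 bp away.

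Among the other roles, the apical matrix proteins with zona pellucida domains had 4 of 13, led by tyn (rank 2559), with the giant matrix protein gene dpy 8462 bp away. This group held tey, which was placed in it by mistake and was occupied, and without tey it had 3 of 12 and the whole list 13 of 67. Tanning and pigment had 2 of 9, led by Pu, which encodes the first enzyme of pterin synthesis (rank 6685, 23.8% ± 5.19, SD, n = 3), with the dopa decarboxylase gene Ddc 870 bp away. Epidermal regulators had 2 of 9, led by grh, the grainyhead factor of epidermal differentiation (rank 2476, 8.61% ± 0.868, SD, n = 3), with Blimp-1 658 bp away. With the most upstream start alone the count over the 68 genes was 8, and the share of all genes 38.5%.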

How the data were processed

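Peaks of tagged Phol from 3 replicates were used as deposited, on the dm6 build. Readme files deposited by the authors name, for each list, the alignments it derives from: those of 1 replicate and a control, of all replicates and a control, and, for the reproducible list, a threshold on the irreproducible discovery rate. Aligner, caller and threshold value were not given in the sources used here. The deposited signal value, of unstated scale, served only to rank peaks within a list. The deposited −log10 q-value was not used, and summits were placed by the deposited offset (in other units, bp). The reproducible list equals the strongest 10264 pooled peaks.

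Genes are the protein-coding ones of Ensembl release 115, with coordinates counted from 1. No peak passed a chromosome end (0 of 130261). Occupied genes had a summit at most 500 bp from any annotated start. Ranks of a site in the replicates are those of the strongest peak within 250 bp, as percent of 30000. Clusters are runs of 3 or more members with starts at most 20 kb apart. No replicate pair shared an identical peak row (0). Whether replicates came from separate collections is not stated, so the SD covers the spread between these samples. The distance script was tested on simulated data with Python 3.11.15, numpy 2.4.6 and pandas 2.3.3.

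The members and lists were chosen with earlier results of these data known. Named genes are members with a summit within 500 bp in the reproducible list, the pooled list or 2 replicates, those with a reproducible summit over 500 and up to 1000 bp away, Pcp, Lcp1 to Lcp4 and the Edg genes, cluster summits and edges, and from each role group the strongest occupied gene and the first unoccupied one; other genes named were chosen after their values were seen. The symbols wey, AANAT1, Tan and svb did not match the annotation and were not used. Alternatives tried were the window, the most upstream start alone, RefSeq starts, peak strength, cluster spacing and leaving out replicates.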

Additional observations from a re-analysis of the deposited data

How the results depend on the processing

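The low occupancy of the 121 cuticle protein genes held under each alternative tried, though its size moved. The 2 genes of the reproducible list became 0 with a window of 200 bp (all genes 31.8%), 8 with 1000 bp (45.1%), 0 in the strongest 5132 peaks (25.8%) and 8 in the full pooled list (55.4%). They were 2 with the most upstream start (38.5%) and with RefSeq starts. To leave out each replicate in turn, reproducible summits were kept if the strongest peaks of both other replicates matched them within 250 bp. The count was again 2 (34.7% to 38.6%). The reproducible peaks still drew on all pooled replicates, so this setting could not have raised the count. A wider symbol rule, which also takes 20 genes with symbols beginning in Acp and the P450 reductase Cpr, gave 3 of 143. These were Cpr65Ea, Lcp9 and the reductase Cpr. The mean over the strongest peaks of the replicates, 2, was 0 with 200 bp (all genes 26.8% to 34.2%) and 8.67 with 1000 bp (41.7% to 47.2%). It was 0 in the strongest 5000 peaks, where the share of all genes was not computed. Over the full lists, the mean of 8.33 was 3 with 200 bp (40.7% to 45.8%) and 17.7 with 1000 bp (60.6% to 61.7%). With 1 replicate left out of this mean it was 7 to 9.5. The median distance of 11288 bp was 15150 bp in the strongest 5132 peaks (all genes 5384 bp) and 7128 bp in the pooled list (309 bp). Among the summits matched by both other replicates it could only stay or grow. There it was 11341 to 12906 bp, where all genes gave 2125 to 2781 bp. In the reproducible list the median distance was 10022 bp without the 12 genes from TwdlM to TwdlD, an alternative added after seeing the data. The cluster density of 3.7 summits per 100 kb (7.67 over the 6 arms) was 5.76 in the pooled list (22.4 over the arms). It was 3.16 with starts up to 50 kb apart. In the strongest 5132 peaks it was 1.23, and the density of that shorter list over the arms was not computed. The 14 occupied genes of cuticle assembly were 6 with 200 bp, 8 with the most upstream start and 6 in the strongest 5132 peaks (the shares of all genes as above). Among the summits matched by both other replicates they were 13 with each replicate left out, and there the count could not rise. They were also 13 without tey, an alternative added after seeing the data. The cause was not tested. No paired analysis was possible because the replicates form 1 group. Lists of fixed length and unknown depth limit what a missing peak shows: it was not among the strongest 30000.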
